A study of Mus musculus with 73 samples.

Results

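The genes described here are 51 genes of the mouse 8-cell embryo that were lower in blastocysts and already showed most of that decrease in 8-cell embryos expressing p150DN. They were chosen from the measured values. With group means of log2(FPKM + 1), a gene was taken if its EGFP blastocyst value lay at least 1.5 below its EGFP 8-cell value, if its mean EGFP 8-cell level was at least 10 FPKM, and if the share of the blastocyst decrease already seen in p150DN 8-cell embryos was at least 0.6. FPKM counts a gene's sequenced fragments relative to its length and to the library's total, and the share is the p150DN minus EGFP 8-cell difference divided by the blastocyst minus EGFP 8-cell difference. Of 25220 gene symbols, 452 passed the thresholds on the blastocyst difference and the level, and these are called falling genes. The share threshold kept 51 of the 452 (11.3%), and 401 are the other falling genes. Symbols of microRNAs, predicted genes and unnamed clones were left out, which set aside 5 of 56 genes that passed. All 51 genes code for proteins.

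The study followed histone H3.3 through early development of the mouse, and 8 of its 73 samples are the RNA-seq libraries used here. They are 3 libraries of p150DN 8-cell embryos, 2 of EGFP blastocysts and 3 of EGFP 8-cell embryos, all from hybrid C57BL/6 / C3H embryos cultured in KSOM. EGFP, a green fluorescent protein, is the control for p150DN, and the blastocysts expressed EGFP too, so no group was left unmanipulated. Chaf1a encodes p150, the largest protein of the histone chaperone complex CAF-1 (chromatin assembly factor 1), and DN is read here as dominant negative, which the labels do not spell out. The sources used here give neither the way p150DN and EGFP were brought into these embryos nor the number of embryos behind each library. The labels do not say whether replicates came from separate cultures, so each p-value reflects only how far these libraries scatter, which may be technical. In such bulk samples, fewer cells of a type and less RNA per cell cannot be told apart.

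The egg supplies the embryo with maternal RNA, which is degraded in waves while the embryonic genome becomes active. By the 8-cell stage the embryo runs on its own transcripts, and on the way to the blastocyst it replaces many of them as trophectoderm and inner cell mass form. CAF-1 places histones H3 and H4 on newly replicated DNA, and it is needed for the embryo to develop past these stages.

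The gene that encodes p150 was checked first. Chaf1a had 165, 254 and 238 FPKM in p150DN 8-cell libraries, against 26.5 and 27.2 FPKM in EGFP blastocyst libraries and 27.7, 30.2 and 28.8 FPKM in EGFP 8-cell libraries. All 3 p150DN libraries were far above all 5 EGFP libraries, with a p150DN minus EGFP 8-cell difference of 2.86 (SE 0.17, adjusted p 5.47e-05 by limma, with Benjamini-Hochberg adjustment). The table has a single Chaf1a row, so any introduced p150DN RNA cannot be told apart from the embryo's own transcripts. Chaf1b, the gene of the CAF-1 subunit p60, had 22.6 ± 0.527 FPKM in p150DN 8-cell libraries and 20.4 ± 1.83 FPKM in EGFP 8-cell libraries (SD, n = 3 each; adjusted p 0.41 by limma), and the sign of its difference turned with the scaling (0.15 as deposited, -0.15 after median-of-ratios scaling). Libraries held 16578221 to 22488477 fragments. Replicates correlated with r of 0.961 to 0.986 across genes. Genes above 0 numbered 18412, 20465 and 21282 in p150DN 8-cell, 18991 and 18547 in EGFP blastocyst and 17310 to 18402 in EGFP 8-cell libraries. The summed level of 8 trophectoderm markers was 389 to 598 FPKM in p150DN 8-cell, 1160 to 1230 FPKM in EGFP blastocyst and 245 to 270 FPKM in EGFP 8-cell libraries. The p150DN sums thus lay between the stages, and Krt18 alone gave 117, 147 and 241 FPKM of them. Not every marker lay between. Tead4 had 59, 52.9 and 69.1 FPKM in p150DN 8-cell, 53.3 and 57.4 FPKM in EGFP blastocyst and 151, 144 and 138 FPKM in EGFP 8-cell libraries. Of the 7 trophectoderm markers tested, 5 were higher and 1 was lower in p150DN than in EGFP 8-cell embryos. Inner cell mass markers (6 genes) summed to 518 to 722 FPKM in p150DN 8-cell, 865 to 926 FPKM in EGFP blastocyst and 427 to 575 FPKM in EGFP 8-cell libraries. Pou5f1 alone gave 535, 389 and 496 FPKM of the p150DN sums. Of the 6 tested, 3 were higher and 2 lower in p150DN. Primitive endoderm markers (6 genes) summed to 102 to 147 FPKM in p150DN 8-cell and 117 to 177 FPKM in EGFP 8-cell libraries. In EGFP blastocyst libraries they summed to 143 to 151 FPKM. Of the 3 tested, 1 was higher and 1 lower in p150DN. Over all genes tested, 24.6% were called higher and 9.68% lower. Sperm markers (5 genes) summed to at most 2.32 FPKM in any library.

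As a group, the 51 genes stood much lower in p150DN 8-cell embryos than in EGFP 8-cell embryos, and in most cases above the blastocyst level. Their summed level was 1014, 1221 and 1038 FPKM in p150DN 8-cell libraries, against 702.5 and 671 FPKM in EGFP blastocyst libraries and 2739.9, 3156 and 2545 FPKM in EGFP 8-cell libraries. No p150DN sum reached the lowest EGFP 8-cell sum, and none was as low as a blastocyst sum. The p150DN minus EGFP 8-cell difference ran from -3.14 to -0.997 (median -1.37, on the log2(FPKM + 1) scale), whereas the median over all 11730 genes tested was 0.19. The blastocyst minus EGFP 8-cell difference of the same genes ran from -4.14 to -1.54 (median -1.85). These are the values that chose the genes, so they describe them and test nothing.

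All 51 were called lower in p150DN 8-cell than in EGFP 8-cell embryos by limma at an adjusted p below 0.05, a call made for 9.68% of all genes tested, and every p150DN library lay below every EGFP 8-cell library for all 51, as for 15.5% of all genes tested. All 51 were also called lower in EGFP blastocysts than in EGFP 8-cell embryos, against 24.9% of all genes tested. Since the choice used both differences, nothing is read from these counts. Of the 401 other falling genes, which the choice left out for a smaller share, 249 were called lower in p150DN 8-cell embryos (62.1%), with a median difference of -0.75.

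**Figure D1:**
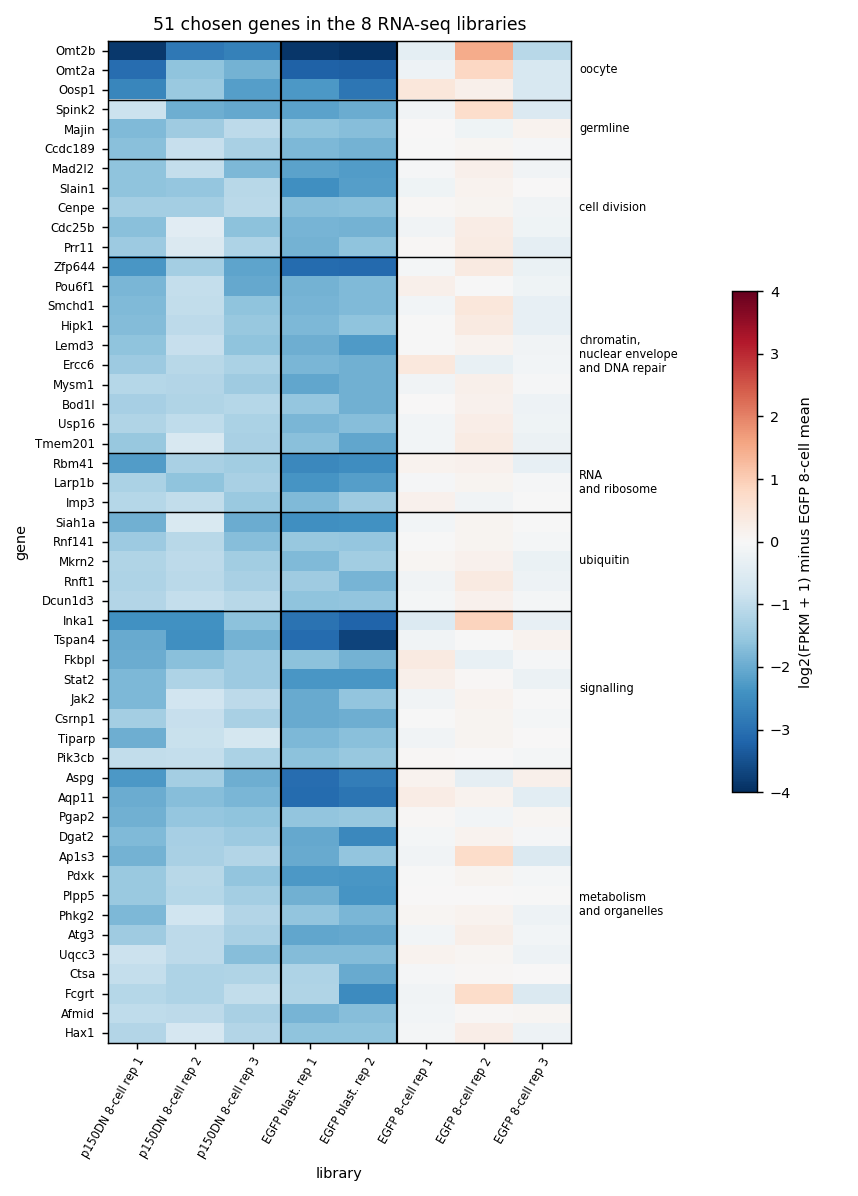
Each row is 1 of the 51 genes and each column a library; colour gives log2(FPKM + 1) minus the gene's mean over the 3 EGFP 8-cell libraries, blue for lower and red for higher, with genes grouped by role. The 3 p150DN 8-cell columns are blue throughout, deepest for Omt2b, and mostly paler than the 2 EGFP blastocyst columns.

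The share was 0.601 to 1.09 over the 51 genes, with a median of 0.671. It reached 0.8 in 9 genes and passed 1 only in Pgap2. Among all 452 falling genes the shares formed 1 broad hump, with 236 genes (52.2%) between 0.3 and 0.6, 148 (32.7%) between 0 and 0.3, and 17 (3.76%) below 0, which means higher in p150DN than in EGFP 8-cell embryos. The 51 are the upper tail of this distribution, with no gap at the threshold. Just inside the threshold of 0.6 lay Pdxk at 0.601, Csrnp1 at 0.603 and Fcgrt at 0.606. Just outside it lay Fkbp10 and Nr2c2, both at 0.597, and Xylb at 0.593. For the blastocyst difference, Rnf141 at -1.54 and Pgap2 at -1.55 lay just inside, and Ccdc6 and Plekha8, both at -1.49, just outside. For the EGFP 8-cell level, Spink2 at 10.6 FPKM and Aqp11 at 11.0 FPKM lay just inside, and Sardh at 9.83 FPKM and Slc10a3 at 8.87 FPKM just outside.

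**Figure D2:**
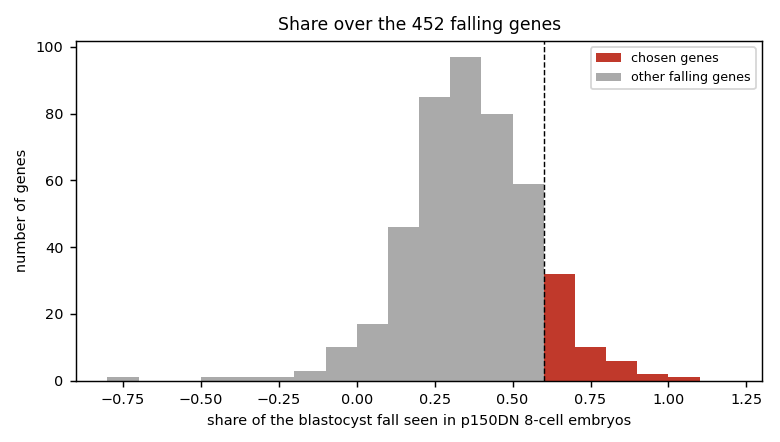
The horizontal axis is the share of the blastocyst decrease already seen in p150DN 8-cell embryos and the vertical axis the number of falling genes per bin of 0.1; red bins hold the 51 chosen genes, grey bins the 401 others. The counts fall off smoothly across the dashed threshold at 0.6, and a single gene, Pgap2, passes 1.

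The label of these genes, as lost early in p150DN, holds only in part. Mean levels in p150DN 8-cell embryos still ran from 1.84 FPKM for Oosp1 to 108 FPKM for Ctsa, so most transcripts were reduced and not absent. The p150DN minus blastocyst difference ran from -0.14 to 1.27, with a median of 0.62, against a median of 1.45 over the other falling genes. Every p150DN library lay above both blastocyst libraries for 35 of the 51 genes, as for 27.1% of all genes tested, and 17 of the 51 (33.3%) were called higher than in blastocysts by limma, as were 11.9% of all genes tested and 386 of the 401 other falling genes (96.3%). None of the 51 was called lower than in blastocysts, against 14.2% of all genes tested. The p150DN minus blastocyst difference follows from both differences that the choice used. These values and counts were therefore largely set by the choice, and they describe the genes and test nothing. That count of 17 moved with single libraries. It was 26 without p150DN 8-cell replicate 1, 9 without p150DN 8-cell replicate 2, 2 without EGFP blastocyst replicate 1 and 0 without EGFP blastocyst replicate 2, and 7 without the filter on low values.

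**Figure D3:**
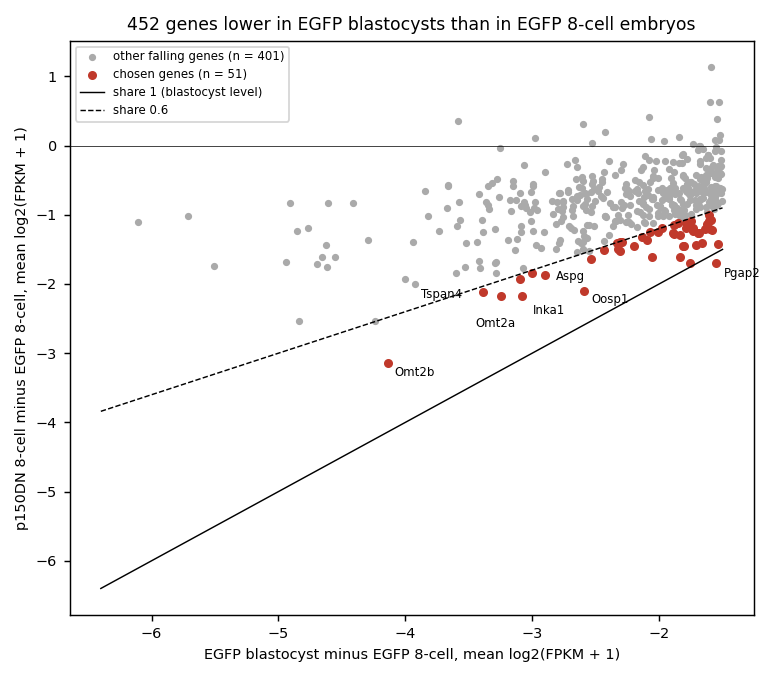
Each point is 1 of the 452 falling genes, with the EGFP blastocyst minus EGFP 8-cell difference on the horizontal axis and the p150DN 8-cell minus EGFP 8-cell difference on the vertical axis, both in mean log2(FPKM + 1). The 51 chosen genes (red) lie below the dashed line of share 0.6 and, apart from Pgap2, above the solid line of share 1.

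The oocyte genes Omt2b, Omt2a and Oosp1 were among the 5 genes with the largest decreases, together with Inka1 and Tspan4, which are given with the signalling genes. Omt2a and Omt2b are oocyte transcripts named for oocyte maturation, and they lie at chr9:78311972-78314797 and chr9:78328030-78329620 on GRCm38.p6, 13232 bases apart. Oosp1, at chr19:11667460-11691051, encodes a secreted protein of the oocyte. Omt2b had 0.801, 2.57 and 3.04 FPKM in p150DN 8-cell libraries, against 0.773 and 0.242 FPKM in EGFP blastocyst libraries and 19.01, 72.5 and 11.2 FPKM in EGFP 8-cell libraries. Every p150DN library lay above both blastocyst libraries, replicate 1 only narrowly. The EGFP 8-cell libraries were all higher still but spread widely, with replicate 2 far above the others. Behind these values stood 12, 37 and 37 fragments in p150DN 8-cell libraries, 11 and 4 in EGFP blastocyst libraries and 291, 1078 and 159 in EGFP 8-cell libraries. Its p150DN minus EGFP 8-cell difference was -3.14 (SE 0.59) and its share 0.759. Without EGFP 8-cell replicate 2 the difference was -2.40. Omt2a had 0.516, 3.03 and 2.35 FPKM in p150DN 8-cell libraries, against 0.3102 and 0.3005 FPKM in EGFP blastocyst libraries and 9.84, 21.2 and 6.91 FPKM in EGFP 8-cell libraries, a p150DN minus EGFP 8-cell difference of -2.18 (SE 0.44). Again EGFP 8-cell replicate 2 was the highest library and p150DN replicate 1 the lowest of its group. The pair may share reads, so the split between them is uncertain. Oosp1 had 0.8995, 3.104 and 1.52 FPKM in p150DN 8-cell libraries, against 1.36 and 0.5603 FPKM in EGFP blastocyst libraries and 14.9, 12.2 and 6.34 FPKM in EGFP 8-cell libraries. The p150DN and blastocyst ranges overlapped, and both lay below every EGFP 8-cell library, with a difference of -2.10 (SE 0.35).

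Other falling oocyte and maternal transcripts had lower shares, which the choice of the 51 fixes. In a list of 71 such genes, 59 were tested in p150DN against EGFP 8-cell embryos. Of the 59, 19 were called lower and 2 higher, against 9.68% and 24.6% of all genes tested. Their median difference was -0.49, beside 0.19 over all genes. Of the listed genes, 17 were falling genes, and the median share among the 17 was 0.292. Zp3, which encodes a zona pellucida protein, had 6.93, 14.2 and 15.8 FPKM in p150DN 8-cell libraries, against 1.14 and 1.28 FPKM in EGFP blastocyst libraries and 16.7, 16.5 and 13.4 FPKM in EGFP 8-cell libraries. Its p150DN and EGFP 8-cell libraries overlapped, its share was 0.131, and it was not called. Gdf9, an oocyte growth factor, had a share of 0.184 and was not called either. Gpr3, a receptor that keeps oocytes in meiotic arrest, came nearest of those left out, at a share of 0.5102, with 0.962, 5.96 and 3.43 FPKM in p150DN 8-cell libraries, against 0.193 and 0.124 FPKM in EGFP blastocyst libraries and 13.7, 10.5 and 15.3 FPKM in EGFP 8-cell libraries. Btg4, which drives the removal of maternal mRNA, followed with a share of 0.486, and both were called lower. The summed level of 8 oocyte markers, Oosp1 among them, was 40.6 to 84.1 FPKM in p150DN 8-cell, 18.6 to 26.1 FPKM in EGFP blastocyst and 79.9 to 97.2 FPKM in EGFP 8-cell libraries. The markers of cumulus and granulosa cells (10 genes) summed to 5.34 to 13.1 FPKM in p150DN 8-cell, 1.72 to 1.98 FPKM in EGFP blastocyst and 18.2 to 23.8 FPKM in EGFP 8-cell libraries. Amhr2 made up nearly all of that sum, and the other 9 were below 1 FPKM in EGFP 8-cell embryos. The part of these marker levels in the oocyte genes' values was not tested.

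The promoters of the Omt2 pair are shown because the 2 genes are neighbours and moved together. Each sequence runs from 250 bases before to 50 bases after the RefSeq start on GRCm38.p6 that the promoter table uses, and capitals mark any match, on either strand, to the letters searched. The 10 motifs searched were AGATAA for GATA factors, GGATTA for OBOX-type homeodomains, AAGGTCA for the receptor NR5A2, GCCNNNGGC for TFAP2 factors, GGGCGGG for KLF and SP factors, GGAATG for TEAD factors, TATAAA for the box at core promoters, CCAAT for the NF-Y box, TGANTCA for AP-1 and CACGTG for the E-box. Omt2a lies at chr9:78313999-78314298 on the minus strand and Omt2b at chr9:78327780-78328079 on the plus strand. The Omt2a window lies wholly inside the span listed for that gene, so it belongs to an inner start, and sequence before the outer end of the gene was not searched.
Omt2a: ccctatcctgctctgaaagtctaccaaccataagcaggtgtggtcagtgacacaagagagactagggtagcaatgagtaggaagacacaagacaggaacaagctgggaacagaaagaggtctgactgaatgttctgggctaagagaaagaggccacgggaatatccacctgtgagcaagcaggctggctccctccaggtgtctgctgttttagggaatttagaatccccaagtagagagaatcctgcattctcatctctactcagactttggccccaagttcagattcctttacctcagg
Omt2b: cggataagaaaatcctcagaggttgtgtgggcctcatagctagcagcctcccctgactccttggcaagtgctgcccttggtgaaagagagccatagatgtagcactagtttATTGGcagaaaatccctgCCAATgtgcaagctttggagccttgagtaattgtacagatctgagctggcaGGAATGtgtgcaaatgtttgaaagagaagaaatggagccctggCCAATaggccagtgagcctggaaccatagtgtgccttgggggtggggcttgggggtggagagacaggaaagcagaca
Omt2a held none of the 10 motifs in this window, whereas Omt2b held CCAAT in 3 places, once as ATTGG, and GGAATG once. Aligned end to end, the pair matched in 44.8% of columns, with 142 matches, 141 mismatches and 34 gaps. No value for unrelated promoters stands beside it, so no likeness is read from it. Each window held 1 CpG, against a median of 21.75 over the 46 of 51 genes that matched a promoter in the RefSeq table.

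Germline transcripts form another small set, Spink2, Majin and Ccdc189. Spink2 encodes a protease inhibitor of the male germ line, Majin a protein that ties telomeres to the nuclear envelope in meiosis, and Ccdc189 a coiled-coil protein of the sperm tail. Majin had 5.96, 7.86 and 10.3 FPKM in p150DN 8-cell libraries, against 6.69 and 6.203 FPKM in EGFP blastocyst libraries and 23.01, 19.7 and 25.2 FPKM in EGFP 8-cell libraries. The blastocyst pair lay within the p150DN range, at a share of 0.848. Spink2 had 4.96, 1.804 and 1.61 FPKM in p150DN 8-cell libraries, against 1.45 and 1.73 FPKM in EGFP blastocyst libraries and 8.705, 16.7 and 6.29 FPKM in EGFP 8-cell libraries. In Spink2, p150DN replicate 1 stood well above replicates 2 and 3, and without those 2 the difference was -0.85 in place of -1.61. Ccdc189 overlaps Phkg2 on chromosome 7 by 925 bases, both were chosen, and the strand setting of the counting is not given, so their reads may be shared.

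Of the 5 genes of cell division, Cenpe was the most abundant. It encodes the kinesin that moves chromosomes at the kinetochore, and had 88.8, 87.1 and 107 FPKM in p150DN 8-cell libraries, against 69.1 and 70.96 FPKM in EGFP blastocyst libraries and 233, 243 and 207 FPKM in EGFP 8-cell libraries. The 3 groups did not overlap, p150DN lay nearer to the blastocyst, and the p150DN minus EGFP 8-cell difference was -1.27 (SE 0.13). Mad2l2 encodes REV7, a subunit of a DNA polymerase that copies past damage, and had 17.7, 28.6 and 15.5 FPKM in p150DN 8-cell libraries, against 11.9 and 11.02 FPKM in EGFP blastocyst libraries and 53.8, 65.3 and 50.3 FPKM in EGFP 8-cell libraries. Cdc25b, a phosphatase that activates the mitotic kinase CDK1, had 4.24, 11.1 and 4.38 FPKM in p150DN 8-cell libraries, against 3.56 and 3.46 FPKM in EGFP blastocyst libraries and 14.2, 19.7 and 13.8 FPKM in EGFP 8-cell libraries. For both, p150DN replicate 2 was the highest of its group and the groups did not overlap. Prr11, a gene of the cell cycle, and Slain1, a protein of growing microtubule ends, complete the set, whose differences ran from -1.45 to -1.09. In a list of 76 cell cycle and checkpoint genes, 72 were tested in p150DN against EGFP 8-cell embryos, with a median difference of -0.11. Of the 72, 16 were called lower and 15 higher, against 9.68% and 24.6% of all genes tested. Of the 7 falling genes in that list 3 were chosen, and Ccnb1, which encodes cyclin B1, was left out at a share of 0.535, with 177, 163 and 150.4 FPKM in p150DN 8-cell libraries, against 95.0 and 106 FPKM in EGFP blastocyst libraries and 291, 290.2 and 276 FPKM in EGFP 8-cell libraries.

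Chromatin, the nuclear envelope and DNA repair account for 10 genes, with differences from -1.93 to -1.15. Smchd1 encodes a chromosome protein that keeps the inactive X and some imprinted clusters silent, and had 16.9, 29.5 and 18.98 FPKM in p150DN 8-cell libraries, against 15.6 and 16.97 FPKM in EGFP blastocyst libraries and 54.9, 81.5 and 47.02 FPKM in EGFP 8-cell libraries. Replicates 1 and 3 of p150DN were close to the blastocyst pair and replicate 2 was higher, at a share of 0.801. Zfp644, a zinc finger protein whose human counterpart binds the histone methyltransferase G9a, had 21.5, 42.6 and 25.3 FPKM in p150DN 8-cell libraries, against 12.4 and 11.97 FPKM in EGFP blastocyst libraries and 105, 143 and 91.8 FPKM in EGFP 8-cell libraries. Here all 3 p150DN libraries stayed above the blastocyst pair, and the difference was -1.93 (SE 0.25). Hipk1, a nuclear kinase that phosphorylates homeodomain proteins, had 19.2, 31.2 and 22.3 FPKM in p150DN 8-cell libraries, against 18.2 and 20.7 FPKM in EGFP blastocyst libraries and 64.5, 84.2 and 52.4 FPKM in EGFP 8-cell libraries. Pou6f1, a POU homeodomain transcription factor, had 7.47, 14.6 and 6.27 FPKM in p150DN 8-cell libraries, against 7.09 and 7.84 FPKM in EGFP blastocyst libraries and 33.4, 29.004 and 25.5 FPKM in EGFP 8-cell libraries. In both genes the p150DN and blastocyst libraries overlapped, at shares of 0.837 and 0.879.

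Usp16 and Mysm1 both encode enzymes that take ubiquitin off histone H2A. Usp16 averaged 75.5 ± 7.11 FPKM in p150DN 8-cell, 48.6 ± 2.69 FPKM in EGFP blastocyst and 169 ± 26.9 FPKM in EGFP 8-cell libraries (SD, n = 3, 2 and 3). Bod1l, which protects stalled replication forks, averaged 33.3 ± 2.19 FPKM in p150DN 8-cell, 23.4 ± 4.12 FPKM in EGFP blastocyst and 79.9 ± 9.77 FPKM in EGFP 8-cell libraries (SD, n = 3, 2 and 3). Lemd3 and Tmem201 encode proteins of the inner nuclear membrane, and Ercc6 a factor of transcription-coupled repair. In a list of 73 chromatin regulators and H3 chaperones, 71 were tested in p150DN against EGFP 8-cell embryos, with a median difference of 0.04. Of the 71, 11 were called lower and 15 higher, against 9.68% and 24.6% of all genes tested. Smchd1 was the only chosen gene on that list, and Kdm4c, a histone demethylase, was the only other falling gene, at a share of 0.308.

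RNA-binding and ribosome genes numbered 3. Larp1b, a La-related RNA-binding protein, was the second most abundant of the 51 and had 96.6, 75.8 and 95.3 FPKM in p150DN 8-cell libraries, against 44.5 and 49.8 FPKM in EGFP blastocyst libraries and 227, 252 and 226 FPKM in EGFP 8-cell libraries. Imp3, part of the U3 particle that processes ribosomal RNA, had 38.7, 42.99 and 30.3 FPKM in p150DN 8-cell libraries, against 24.4 and 31.6 FPKM in EGFP blastocyst libraries and 96.6, 77.6 and 85.1 FPKM in EGFP 8-cell libraries. Imp3 overlapped with the blastocyst level in p150DN replicate 3, whereas Larp1b stood clear of it in every library. Rbm41, with an RNA-binding domain, is the third. Among 102 ribosome biogenesis genes tested, 29 were called lower and 1 higher in p150DN than in EGFP 8-cell embryos (median -0.26). The shares over all genes tested were 9.68% lower and 24.6% higher. Of the 5 falling ribosome biogenesis genes, 4 stayed below the threshold. Wdr43, a nucleolar protein of the small ribosomal subunit's assembly, was nearest among these, at a share of 0.446.

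Ubiquitin and neddylation genes numbered 5, with differences from -1.51 to -1.09. Rnf141, a RING finger protein, had 6.599, 8.49 and 5.39 FPKM in p150DN 8-cell libraries, against 6.18 and 6.03 FPKM in EGFP blastocyst libraries and 19.3, 21.1 and 18.5 FPKM in EGFP 8-cell libraries, so p150DN and blastocyst libraries overlapped, at a share of 0.922. Siah1a, a RING finger ubiquitin ligase, had 8.91, 23.5 and 8.41 FPKM in p150DN 8-cell libraries, against 5.804 and 6.05 FPKM in EGFP blastocyst libraries and 34.1, 39.8 and 35.8 FPKM in EGFP 8-cell libraries. Replicate 2 of p150DN stood well above replicates 1 and 3 in Siah1a, and its count is uncertain because reads may be shared with its close copy Siah1b. Mkrn2 and Rnft1 encode further RING finger proteins, and Dcun1d3 a regulator of cullin neddylation. In a list of 45 ubiquitin ligase and protease adaptor genes, 36 were tested, with a median of -0.04. Of the 36, 8 were called lower and 4 higher in p150DN, against 9.68% and 24.6% of all genes tested.

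Signalling genes numbered 8. Tspan4, a tetraspanin of the cell surface, had 15.2, 11.1 and 16.8 FPKM in p150DN 8-cell libraries, against 6.81 and 4.08 FPKM in EGFP blastocyst libraries and 59.4, 63.9 and 72.6 FPKM in EGFP 8-cell libraries. Its groups did not overlap, and the p150DN minus EGFP 8-cell difference was -2.12 (SE 0.17). Inka1, an inhibitor of the kinase PAK4, had 2.87, 2.89 and 5.69 FPKM in p150DN 8-cell libraries, against 1.704 and 1.26 FPKM in EGFP blastocyst libraries and 13.2, 37.6 and 15.7 FPKM in EGFP 8-cell libraries. As in the Omt2 pair, EGFP 8-cell replicate 2 was far above the other libraries. Fkbpl, an immunophilin-like protein, had 2.98, 4.03 and 4.82 FPKM in p150DN 8-cell libraries, against 4.13 and 3.32 FPKM in EGFP blastocyst libraries and 19.4, 11.9 and 14.2 FPKM in EGFP 8-cell libraries, which puts p150DN and blastocyst embryos at nearly the same level (share 0.9699). Jak2 and Stat2 belong to cytokine signalling, Pik3cb encodes a catalytic subunit of phosphoinositide 3-kinase, Tiparp an ADP-ribosyltransferase, and Csrnp1 a nuclear protein. Over these 8 genes the differences ran from -2.17 to -1.07.

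Metabolism and organelles hold the largest set, 14 genes, with differences from -1.87 to -0.997. Ctsa, the lysosomal cathepsin A and the most abundant of the 51, had 122, 98.97 and 103 FPKM in p150DN 8-cell libraries, against 99.5 and 58.03 FPKM in EGFP blastocyst libraries and 228, 244 and 237 FPKM in EGFP 8-cell libraries. The blastocyst pair differed widely, so its share of 0.695 rests on an uncertain base. Pgap2, which remodels the lipid of GPI anchors, had 5.81, 7.84 and 7.38 FPKM in p150DN 8-cell libraries, against 7.54 and 8.07 FPKM in EGFP blastocyst libraries and 25.6, 22.8 and 26.01 FPKM in EGFP 8-cell libraries. It is the gene whose p150DN mean lay below the blastocyst mean, by -0.14 on the log2 scale, and those libraries overlapped. Aqp11, an intracellular water channel, had 1.97, 2.63 and 2.28 FPKM in p150DN 8-cell libraries, against 0.391 and 0.538 FPKM in EGFP blastocyst libraries and 13.3, 11.8 and 7.82 FPKM in EGFP 8-cell libraries. Aspg, an asparaginase, had 2.28, 5.22 and 3.201 FPKM in p150DN 8-cell libraries, against 0.964 and 1.37 FPKM in EGFP blastocyst libraries and 16.8, 11.7 and 17.5 FPKM in EGFP 8-cell libraries. For Aqp11 and Aspg the 3 groups were separate, with p150DN in between.

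Pdxk, which makes the active form of vitamin B6, averaged 87.8 ± 16.3 FPKM in p150DN 8-cell, 45.4 ± 0.588 FPKM in EGFP blastocyst and 229 ± 14.9 FPKM in EGFP 8-cell libraries (SD, n = 3, 2 and 3). Atg3, which attaches lipid to LC3 in autophagy, averaged 35.2 ± 4.84 FPKM in p150DN 8-cell, 19.4 ± 0.279 FPKM in EGFP blastocyst and 85.3 ± 12.2 FPKM in EGFP 8-cell libraries (SD, n = 3, 2 and 3). Hax1, a mitochondrial protein that protects cells from apoptosis, had the smallest difference of the 51, -0.997 (SE 0.18). Ap1s3, a subunit of the AP-1 clathrin adaptor, had 2.75, 4.64 and 5.14 FPKM in p150DN 8-cell libraries, against 2.44 and 3.62 FPKM in EGFP blastocyst libraries and 11.5, 21.98 and 8.34 FPKM in EGFP 8-cell libraries, with overlap between p150DN and blastocyst embryos. The others are Dgat2, which makes triglyceride, Plpp5, a lipid phosphatase, Phkg2, a catalytic subunit of phosphorylase kinase, Afmid, an enzyme of tryptophan breakdown, Uqcc3, an assembly factor of respiratory complex III, and Fcgrt, the neonatal Fc receptor.

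**Figure D4:**
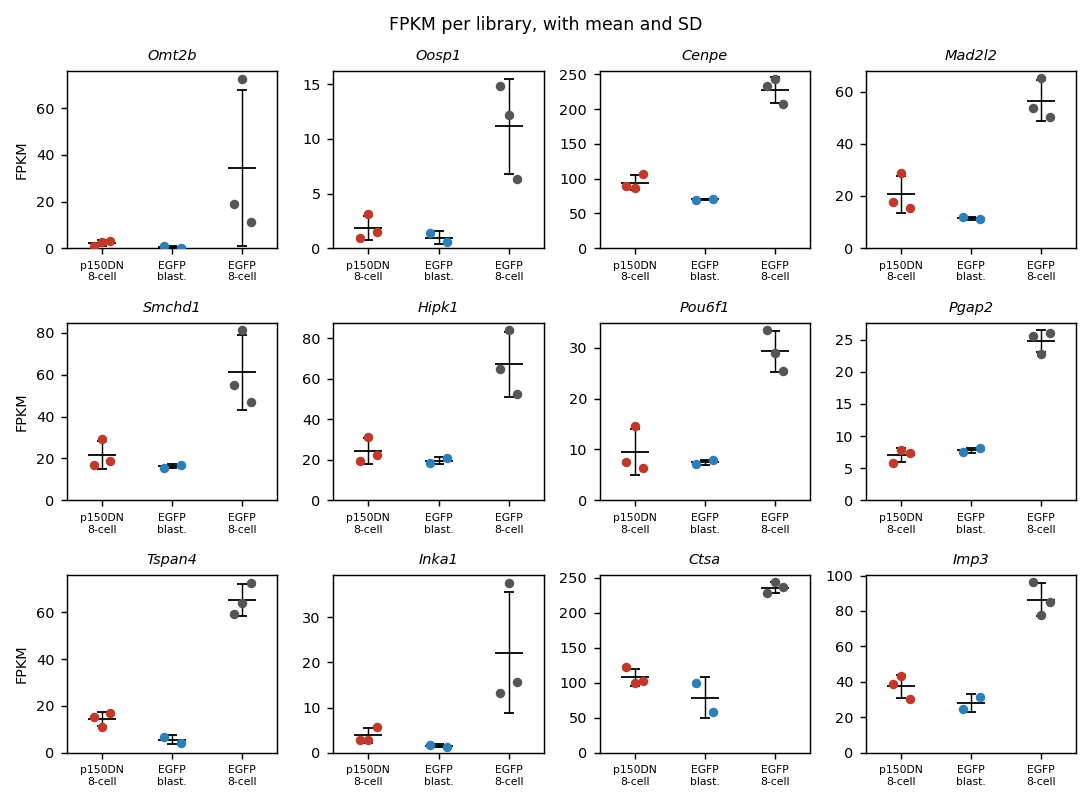
Each panel gives 1 gene's FPKM in every library, with the group mean (bar) and SD (whiskers), p150DN 8-cell in red, EGFP blastocyst in blue and EGFP 8-cell in grey; vertical axes start at 0. In all 12 panels the red points lie under the grey ones, and in the panel for Pgap2 they lie at the blue ones.

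No gene from a list of early lineage transcription factors was among the 51. Of the 69 listed, 53 were tested in p150DN against EGFP 8-cell embryos, and 8 were falling genes. Of the 53, 21 were called higher and 12 lower, against 24.6% and 9.68% of all genes tested. Nr2c2, a nuclear receptor, missed the threshold narrowly at a share of 0.597, with 21.6 ± 5.21 FPKM in p150DN 8-cell, 9.87 ± 0.671 FPKM in EGFP blastocyst and 62.7 ± 3.605 FPKM in EGFP 8-cell libraries (SD, n = 3, 2 and 3). Gata4, known for its role in endoderm, had 6.86, 10.04 and 5.89 FPKM in p150DN 8-cell libraries, against 0.712 and 0.718 FPKM in EGFP blastocyst libraries and 50.7, 54.9 and 39.6 FPKM in EGFP 8-cell libraries. Its difference of -2.54 (SE 0.21) was deeper than that of 50 of the 51 genes, but the blastocyst difference was -4.84 and the share 0.525. Of all 452 falling genes 11.3% were chosen, so nothing is read from the absence of genes from short lists. KHDC1, PRAMEL and related families had 10 falling genes, none of them chosen, with a median share of 0.247, and Obox6, the 1 falling gene among the Obox homeobox genes, had 193, 266 and 174 FPKM in p150DN 8-cell libraries, against 19.1 and 13.2 FPKM in EGFP blastocyst libraries and 514, 445 and 505 FPKM in EGFP 8-cell libraries, a share of 0.253. Among 63 core and linker histone genes tested, 29 were called lower and 4 higher in p150DN than in EGFP 8-cell embryos. The shares over all genes tested were 9.68% lower and 24.6% higher. None of the 63 was a falling gene. Imprinted genes (29 tested, 13 higher, 2 lower), numbered zinc finger genes (65 tested, 11 higher, 4 lower) and sperm transcripts (0 tested) gave no chosen gene either. No direction is read from the lists' medians or counts of calls, which are given as deposited only. The median of all genes moved by over 0.1 with the scaling, to -0.07 with median-of-ratios scaling and to -0.03 with quantile normalization. Calls over all genes were 2887 higher and 1136 lower as deposited, but 1688 higher and 2358 lower after median-of-ratios scaling.

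The p150DN libraries did not carry the decrease equally. The median difference from the EGFP 8-cell mean over the 51 genes was -1.60 in p150DN replicate 1, -1.10 in replicate 2 and -1.38 in replicate 3, while over all genes tested it was 0.14, 0.20 and 0.24 in the same libraries. Replicate 2 held the highest p150DN value in 34 of the 51 genes, and replicate 1 held the lowest in 31. The median share was 0.771, 0.578 and 0.697 in p150DN replicates 1, 2 and 3, so replicate 2 alone would put the typical gene under the threshold. The other falling genes showed the same order, with medians of -0.97, -0.46 and -0.81. The EGFP 8-cell libraries were uneven too. Their medians over the 51 genes, from their own mean, were -0.05, 0.14 and -0.14 in replicates 1, 2 and 3. Below that mean lay 32, 8 and 43 of the 51, so replicate 2 was mostly high. Without EGFP 8-cell replicate 2 the rule chose 41 genes, 35 of them among the 51.

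Since the choice used every library, it was repeated without each library in turn, and the genes so chosen were read in the library left out. Without p150DN replicate 1 the rule chose 33 genes, 31 of them among the 51, and in that library 24 of the 33 had a share of at least 0.6 (median 0.767). Without p150DN replicate 2 it chose 73, 47 of them among the 51, and in that library 16 of the 73 reached 0.6 (median 0.474). Without p150DN replicate 3 it chose 44, 37 of them among the 51, and 28 of the 44 reached 0.6 there (median 0.646). All 33, 73 and 44 genes were below the EGFP 8-cell mean in the p150DN library left out, but in replicate 2 the shares were mostly smaller than the threshold. The median difference from that mean in these libraries was 0.14, 0.20 and 0.24 over all genes tested. Over the 401 other falling genes it was -0.97, -0.46 and -0.81, so lying below that mean is not particular to the genes chosen. With an EGFP blastocyst library left out, the rule chose 48 or 50 genes and the median share in that library was 0.670 or 0.698. With an EGFP 8-cell library left out, it chose 41 to 66 genes, with medians of 0.648 to 0.694. The other libraries of each group are shared between the choice and the reading, so this is a description.

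Membership varied in the same way. Of the 51, 15 were chosen in all 8 repeats, namely Bod1l, Ccdc189, Cenpe, Dcun1d3, Ercc6, Fkbpl, Hipk1, Inka1, Majin, Omt2b, Pgap2, Pik3cb, Pou6f1, Smchd1 and Usp16. A further 25 were chosen in 6 or 7 repeats, and 11 in fewer than 6, with Csrnp1, Fcgrt, Pdxk, Prr11, Slain1 and Tmem201 at 4. Another 57 genes outside the 51 were chosen in at least 1 repeat.

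**Figure D5:**
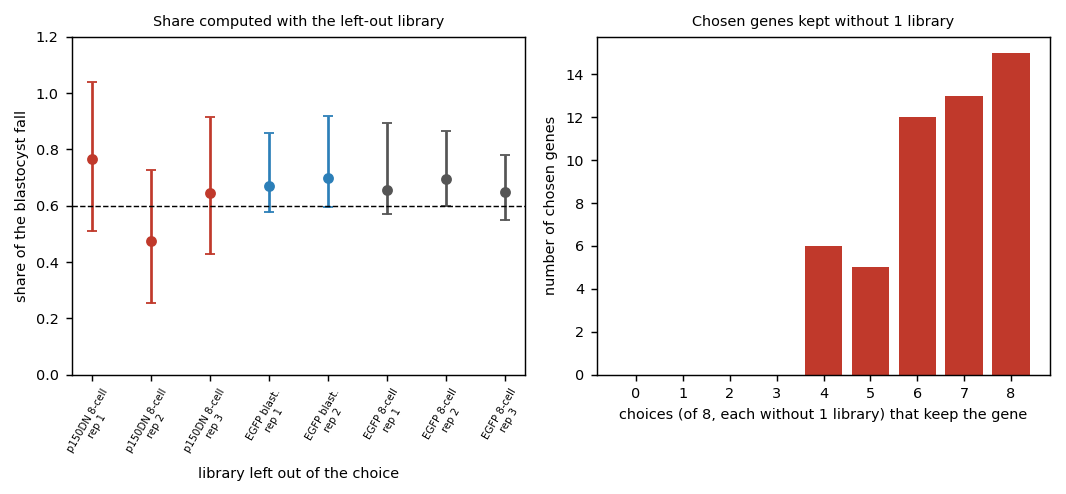
Left, the median share (point) and its 10th to 90th percentile range (bar) over the genes chosen without a library, read with that library; the dashed line is the threshold of 0.6, and only p150DN replicate 2 has its median below it. Right, the number of the 51 genes by how many of the 8 repeats chose them, from 4 to 8.

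What the genes share beyond the rule was looked at in their position and promoters. The 46 genes with a RefSeq promoter were searched for the 10 motifs on both strands, beside all 27025 promoters of the same 300 bases. AAGGTCA, the letters bound by the nuclear receptor NR5A2, was in 5 of 46 (10.9%), against 6 of 313 other falling genes (1.92%), 3.89% of tested genes and 5.38% of all promoters. The GC-rich GGGCGGG was in 27 of 46 (58.7%), against 48.9% of other falling genes, 51.8% of tested genes and 27.9% of all promoters. CCAAT was in 23 of 46 (50%), against 43.1% of other falling genes, 43.6% of tested genes and 41.1% of all promoters. GGAATG was in 4 of 46 (8.7%), against 14.4% of other falling genes, 14.1% of tested genes and 16.6% of all promoters. GCCNNNGGC was in 16 of 46 (34.8%), against 29.7% of other falling genes, 28.4% of tested genes and 18.5% of all promoters. CACGTG was in 8 of 46 (17.4%), against 15%, 12% and 8.09% in that order. TATAAA was in 2 of 46 (4.35%), against 8.63%, 8.57% and 15.7%, and TGANTCA in 2 (4.35%), against 3.83%, 5.7% and 8.97%. AGATAA and GGATTA were each in 4 of 46 (8.7%), against 12.7% and 8.14% of all promoters. AAGGTCA was picked out after these shares were seen and rests on 5 genes, Ctsa, Tmem201, Zfp644, Csrnp1 and Uqcc3. Promoters of Ctsa, at chr2:164832622-164832921 on the plus strand, and Zfp644, at chr5:106696781-106697080 on the minus strand, are shown as the most abundant of the 5, with AAGGTCA or its reverse TGACCTT in capitals.
Ctsa: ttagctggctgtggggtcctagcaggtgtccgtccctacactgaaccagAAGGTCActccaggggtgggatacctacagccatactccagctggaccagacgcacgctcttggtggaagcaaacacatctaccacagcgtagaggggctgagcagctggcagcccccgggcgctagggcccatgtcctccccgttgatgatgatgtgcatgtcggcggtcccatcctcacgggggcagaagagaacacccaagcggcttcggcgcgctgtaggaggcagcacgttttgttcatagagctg
Zfp644: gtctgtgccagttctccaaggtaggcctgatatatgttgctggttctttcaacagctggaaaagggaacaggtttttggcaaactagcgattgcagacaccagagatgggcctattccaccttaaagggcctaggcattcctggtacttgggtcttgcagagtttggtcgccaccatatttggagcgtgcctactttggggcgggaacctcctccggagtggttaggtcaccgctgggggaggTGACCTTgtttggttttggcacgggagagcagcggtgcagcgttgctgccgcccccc
A match is only a description of these letters. Other falling genes and all tested genes had promoters for 78.05% and 76.9% of their members, below 80%, so no comparison of base composition with them is made. The 46 promoters had a median GC content of 62%.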

How the data were processed

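The 8 RNA-seq libraries of the series were used, and its other samples are not analysed here. The authors deposited a single FPKM table, per the file headers, of 25220 gene symbols in 8 columns, and every column was used. Per the labels' protocols, a stranded SMART-seq kit was applied to total RNA of lysed embryos. The submitters' processing notes name Trim Galore, HISAT2, featureCounts, Bowtie2 and SAMtools without versions, and the build mm10. Neither the gene annotation nor the strand option used in counting is given in the sources used here, so overlapping and antisense genes are uncertain. Columns of 8-cell embryos without p150DN were taken as the EGFP 8-cell libraries, the only such RNA-seq group in the labels. Because FPKM is relative to the library's total, genes that rise push the others down, and a global change in an embryo's RNA content is invisible.

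Whole fragments were recovered from the FPKM values for 13018 of 13019 genes, within 0.02 fragments, giving 16578221 to 22488477 per library. Differences are on the log2(FPKM + 1) scale, where changes of low genes come out too small. Two-sided limma tests (version 3.58.1, R 4.3.3; lmFit, then eBayes with a mean-variance trend) took only the compared groups. A gene entered if 3 or more libraries reached 1 FPKM (p150DN against EGFP 8-cell) or if 2 or more did (both comparisons with blastocysts), with Benjamini-Hochberg adjustment and calls at 0.05. The fit was tested on simulated data. All 51 genes passed these filters. Alternatives were another pseudocount, filter and scaling, 1 fit over all libraries, a replicate block, and each library left out.

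The chosen genes and the 14 gene lists were set with earlier results of these data known. Roles were assigned after the choice, to order the text. Genes named with values are those on a list, the 10 with the highest EGFP 8-cell level, the largest decrease or the largest share, those beside a threshold, and Chaf1a and Chaf1b; list genes that were not chosen were named after their values were seen. Promoters, coordinates and biotypes come from RefSeq tables of GRCm38.p6, the assembly of mm10, in which all 51 symbols were found. Deviations of same-numbered p150DN and EGFP 8-cell libraries correlated only weakly (0.0616, 0.0986 and 0.0346). Between different-numbered libraries the correlations ran from -0.12 to 0.0776. Numbers were not taken to pair them, though these values cannot exclude a pairing.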

Additional observations from a re-analysis of the deposited data

How the results depend on the processing

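The genes chosen depended on the scaling, the threshold and the libraries. With 51 as reported, median-of-ratios scaling chose 168, all of the 51 among them, and quantile normalization 85, of which 43 were among the 51. Share thresholds of 0.5 and 0.7 chose 110 and 19 genes, and p150DN replicate 1 alone, without replicates 2 and 3, chose 115. Leaving out each library gave 33 to 73. A pseudocount of 0.1 gave 57 genes, of which 44 were among the 51, and a minimum level of 5 FPKM gave 61. With the pseudocount of 0.1 the shares of the 51 ran from 0.511 to 1.098, so some fell below the threshold. The median difference of the 51 genes, -1.37, became -1.67 after median-of-ratios scaling and -1.45 to -1.25 with a library left out, and the median share, 0.671, became 0.771 with p150DN replicate 1 alone and 0.634 to 0.730 with a library left out. Median-of-ratios scaling divides each library by 1 factor, 1.0052 to 1.1584 in p150DN 8-cell and 0.8646 to 0.9059 in EGFP 8-cell libraries, and put the median p150DN minus EGFP 8-cell difference over all genes at -0.07, against 0.19 as deposited.

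Genes called for p150DN against EGFP 8-cell embryos numbered 4023 (2887 higher, 1136 lower). The split was 1688 higher and 2358 lower after median-of-ratios scaling and 1779 higher and 1841 lower after quantile normalization, and the count was 2238 to 3553 with a library left out (2238 without p150DN replicate 3, 2560 without EGFP 8-cell replicate 1) and 2314 with p150DN replicate 1 alone. That setting, added after the data were seen, leaves a lone library that is assumed to vary like the others. Of the 51 genes, 49 to 51 were called lower under each setting that kept more than 1 library per group. Over all genes tested, 1136 of 11730 were called lower as deposited and 2358 of 11710 after median-of-ratios scaling. The choice of the 51 used this difference, so nothing is read from their calls. EGFP blastocysts against EGFP 8-cell embryos gave 8236 calls, and 5459 to 8144 with a library left out (lowest without blastocyst replicate 2). p150DN 8-cell embryos against EGFP blastocysts gave 3301, but 1555 without the filter on low values and 323 to 4215 with a library left out (501 and 323 without blastocyst replicates 1 and 2). The cause was not tested. Chaf1b, not called as deposited, turned to -0.15 after median-of-ratios scaling. The replicate block gave 4081, 7847 and 3126 calls in these comparisons. Counting depth limits low genes most, such as Omt2b in blastocysts, which rests on 11 and 4 fragments.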

Other observations

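Of the 51 genes, 9 lie on chromosome 7 (17.6%), where 7.76% of tested genes and 9.11% of the 452 falling genes lie, and 6 lie on chromosome 9 (11.8%, against 5.59% of tested genes and 8.22% of falling genes). Chromosomes 13 and 18 hold none. These are counts only, and apart from the Omt2 pair and the overlapping Phkg2 and Ccdc189, the closest 2 of the genes on one chromosome are Rnft1 and Prr11, 590148 bases apart. The median counted length was 2919 bases, against 3058 for other falling genes and 2785 for all tested genes, and the median span was 23.6 kb, against 23.2 kb for other falling genes and 20.6 kb for all tested genes. Another gene of the table overlaps 18 of the 51 genes, and for 14 of them that neighbour had at least 1 FPKM in EGFP 8-cell embryos. Cct8, which overlaps Usp16 by 191 bases, averaged 191 FPKM in p150DN 8-cell, 235 FPKM in EGFP blastocyst and 120 FPKM in EGFP 8-cell libraries, the opposite order to Usp16. Other neighbours had the order of their gene. Neurl2, which overlaps Ctsa by 725 bases, averaged 8.45, 3.01 and 16.3 FPKM in these groups. Mir6908, which overlaps Pdxk by 63 bases, averaged 0.53, 0.41 and 6.04 FPKM. Whether shared reads enter the values of the 51 genes was not tested.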
